A study of Mus musculus with 8 samples.

Results

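Peroxisomal enzymes and peroxins were read in the colon of Mdr1a-/- mice with a high injury score and of mice labelled FVB/N with a low score. The set holds every array probe whose listed gene name starts with Pex and a digit, together with the probes of 24 named peroxisomal genes. That gave 66 probes for 41 genes, of 41174 probes for 27712 named genes on the array. Of the 41 genes, 19 encode enzymes (24 probes) and 5 encode importers or small membrane proteins (9 probes). The other 17 are counted by name as peroxins (33 probes), the proteins that build the organelle. The listed names caught 55 probes. The other 11 are listed under older names and joined through their current names, among them Hao2, which the files list as Hao3, and the true Pex2, listed as Pxmp3. The probe that the files list as Pex2 belongs to Pex5l by its accession in RefSeq and is given under that name. Pex5l, a relative of Pex5 known from neurons, is counted among the 17 by its name alone.

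Peroxisomes break down very long-chain, branched and 2-hydroxy fatty acids, and make the first steps of ether lipid synthesis. Their oxidases pass electrons straight to oxygen and release hydrogen peroxide, which catalase removes. Peroxins import the finished enzymes from the cytosol, insert the membrane proteins and let the organelle divide. The nuclear receptor Ppara drives many peroxisomal enzyme genes, most of all in rodent liver.

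Agilent 2-colour mouse arrays were hybridised with colon RNA of 8 male mice, 1 mouse per array. In the first group were 4 Mdr1a-/- mice on the FVB/N background, picked for a high histological injury score of the colon. In the second were 4 wild type FVB/N mice picked for a low score. All ate the AIN-76A powdered control diet, were 21 to 24 weeks old, and had fasted overnight before a short refeeding. Mdr1a-/- mice lack the efflux transporter Abcb1a in all tissues and develop colitis. The groups differ in genotype and in score at once, so the effects of these cannot be told apart. Each Cy3-labelled sample was hybridised against a common Cy5-labelled reference, a pool of small intestine, colon, kidney, liver and fetal RNA of Swiss mice. Values below are log2(sample / reference), and a log2 fold change is the Mdr1a-/- mean minus the mean of the other group, so a negative value is lower in Mdr1a-/- mice.

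The group labels carry a doubt. The single Abcb1a probe stood at -0.89, -0.95, -0.70 and -0.97 on the Mdr1a-/- arrays and at -0.80, 0.01, -0.49 and -0.62 on the others. The groups overlapped, with a difference of -0.40 ± 0.19 (SE) that did not pass (limma adjusted p = 0.362). In the authors' deposited table the difference was -1.62 and passed, lower in Mdr1a-/- mice (adjusted p = 9.75e-05). Where this probe lies relative to the disrupted part of the gene was not tested, so its values alone cannot check the labels. Of the FVB/N files, 0 of 4 come from a slide that the study's protocol lists for the experiment, against 3 of 4 Mdr1a-/- files. The second group is therefore called the arrays labelled FVB/N, and every direction rests on the labels. Signal exceeded background for 67% to 86.3% of the probes of an array, and the precision is that of 4 arrays per group. Leukocyte markers were higher in Mdr1a-/- mice for 5 of 7 genes, with array means of 1.17 to 2.11 against 0.13 to 0.70. Of 8 epithelial markers 0 passed, but their array means did not overlap, at 0.01 to 0.25 in Mdr1a-/- mice and 0.28 to 0.54 on the arrays labelled FVB/N. In bulk colon, fewer cells of a type and less RNA per cell cannot be told apart.

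Of the 41 genes, 2 were lower in Mdr1a-/- mice, 0 were higher and 39 did not pass, taking the brightest probe of each gene. Both genes that fell are enzymes: Hao2, which oxidises long-chain 2-hydroxy acids, and Cat, which is catalase. The threshold was an adjusted p of 0.05 from limma, by the method of Benjamini and Hochberg over all 41174 probes. Over all named genes, 1.68% were called lower, 1.82% higher and 3.5% in either direction. The 2 genes came from 19 enzymes, while 0 of 5 importers or membrane proteins and 0 of 17 peroxins were called. At an unadjusted p under 0.05 the counts were 6 of 19 enzymes, 0 of 5 importers or membrane proteins and 1 of 17 peroxins. Over all named genes the count was 4448 of 27712. Whether enzymes and peroxins differ in how often they are called was not tested. There was no overlap between the groups for 4 genes of the 41, namely Hao2, Cat and Pex5, which were lower, and Agps, which was higher, against 11.4% of all named genes (5.39% lower and 5.97% higher).

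**Figure D1:**
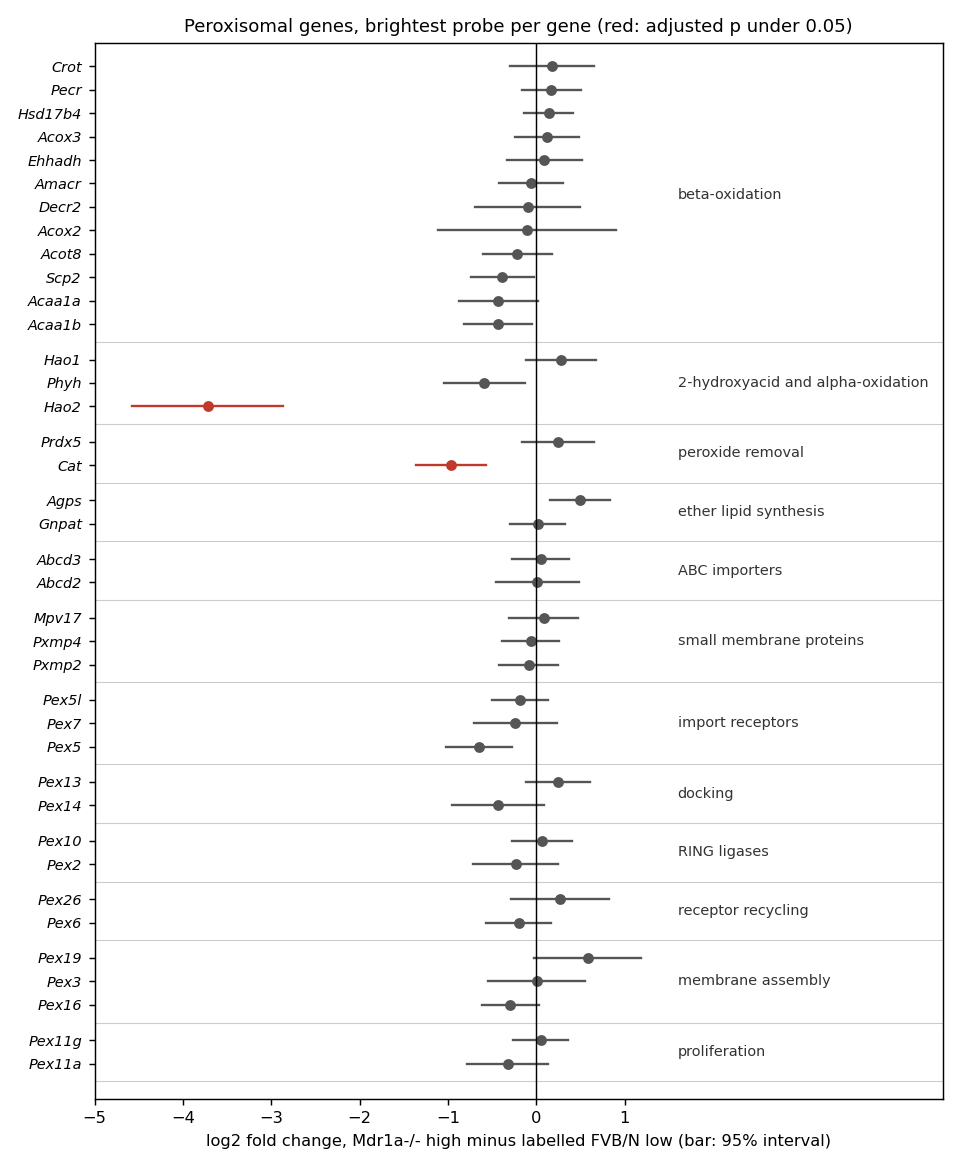
Log2 fold change (x axis, Mdr1a-/- high score minus labelled FVB/N low score) of the brightest probe of 38 of the genes, with bars for the 95% interval of limma, ordered by role. Hao2 at -3.72 and Cat at -0.97, in red, are the genes that passed, and the intervals of 32 of the 38 lie within 1 of no change.

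The 2-hydroxyacid oxidases and the alpha-oxidation enzyme gave the most uneven group. Hao2 (A_51_P114722, chromosome 3) encodes a flavin enzyme that turns long-chain L-2-hydroxy acids into 2-keto acids and releases hydrogen peroxide. Its log2 ratio was -2.89, -1.70, -3.43 and -3.70 in Mdr1a-/- mice and 0.51, 0.95, 0.78 and 0.93 on the arrays labelled FVB/N. All Mdr1a-/- arrays lay far below the reference and all arrays labelled FVB/N above it, with a wide gap between them. The means were -2.93 ± 0.89 and 0.79 ± 0.20 (SD, n = 4 each). This is 13.2-fold lower, a log2 fold change of -3.72 ± 0.38 (SE) with a 95% interval of -4.58 to -2.86 (limma adjusted p = 0.00216). It was the lowest fold change of all 41174 probes, and the probe was above background on all 8 arrays. Scan day here is the date in the name of each array's raw data, numbered in order. That it is the day of scanning was assumed. Within scan day 2, which holds 2 arrays of each group, the Hao2 difference was -2.93 and did not pass (limma adjusted p = 0.195). Within scan day 3 it was -4.37. Mdr1a-/- replicate 2 was the highest of its group, and without it the fold change was -4.13.

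Hao1, the paralog that oxidises glycolate and is best known from liver, did not follow Hao2. Its log2 ratio was -3.29, -2.97, -2.94 and -3.45 in Mdr1a-/- mice and -3.15, -3.45, -3.65 and -3.54 on the arrays labelled FVB/N. The groups overlapped, and all 8 arrays lay far below the reference. The fold change was 0.28 ± 0.18 (SE, limma adjusted p = 0.522), and the probe was above background on 1 Mdr1a-/- array and on 3 of the others. Phyh, which starts alpha-oxidation of phytanic acid, stood at -1.81, -1.44, -0.90 and -1.57 against -0.89, -0.69, -0.72 and -1.06. Mdr1a-/- replicate 3 lay among the arrays labelled FVB/N and the other 3 below them, and the fold change of -0.59 ± 0.20 (SE) did not pass (limma adjusted p = 0.192). The reference channel of the Phyh probe was near saturation on 6 of 8 arrays.

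Peroxide removal split between its 2 genes. Cat (A_52_P679769, chromosome 2), the heme enzyme that turns hydrogen peroxide into water and oxygen, had log2 ratios of -3.41, -3.24, -3.53 and -3.39 in Mdr1a-/- mice. On the arrays labelled FVB/N they were -2.58, -2.32, -2.05 and -2.76. The Mdr1a-/- arrays lay close together and all below the lowest of the others. The means were -3.39 ± 0.12 and -2.43 ± 0.31 (SD, n = 4 each). This is 1.95-fold lower, a log2 fold change of -0.97 ± 0.18 (SE) with a 95% interval of -1.36 to -0.57 (limma adjusted p = 0.0207). The reference channel was near saturation on 6 of 8 arrays and the sample channel on 0, and the Cy3 channel alone, which leaves the reference out, gave -0.99. The difference was -1.01 within scan day 2 and -0.99 within scan day 3. Mdr1a-/- replicate 4 is the sole array of scan day 1, so it adds nothing to the difference once scan day enters the fit. Cat missed the threshold in that fit (limma adjusted p = 0.0961). It also missed it when Mdr1a-/- replicate 1 or 4, or the arrays labelled FVB/N replicate 2 or 3, were dropped in turn (limma adjusted p = 0.0602, 0.0713, 0.0582 and 0.0501). Over the 8 fits with 1 array dropped its fold change stayed between -1.07 and -0.84.

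Prdx5, a peroxiredoxin of peroxisomes, mitochondria and cytosol that also reduces hydrogen peroxide, stood at -1.21, -1.83, -1.70 and -1.21 in Mdr1a-/- mice. On the arrays labelled FVB/N it stood at -1.91, -1.70, -1.58 and -1.74, so the groups overlapped. Its fold change was 0.25 ± 0.18 (SE), with -0.16 to 0.65 as the 95% interval (limma adjusted p = 0.607).

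**Figure D2:**
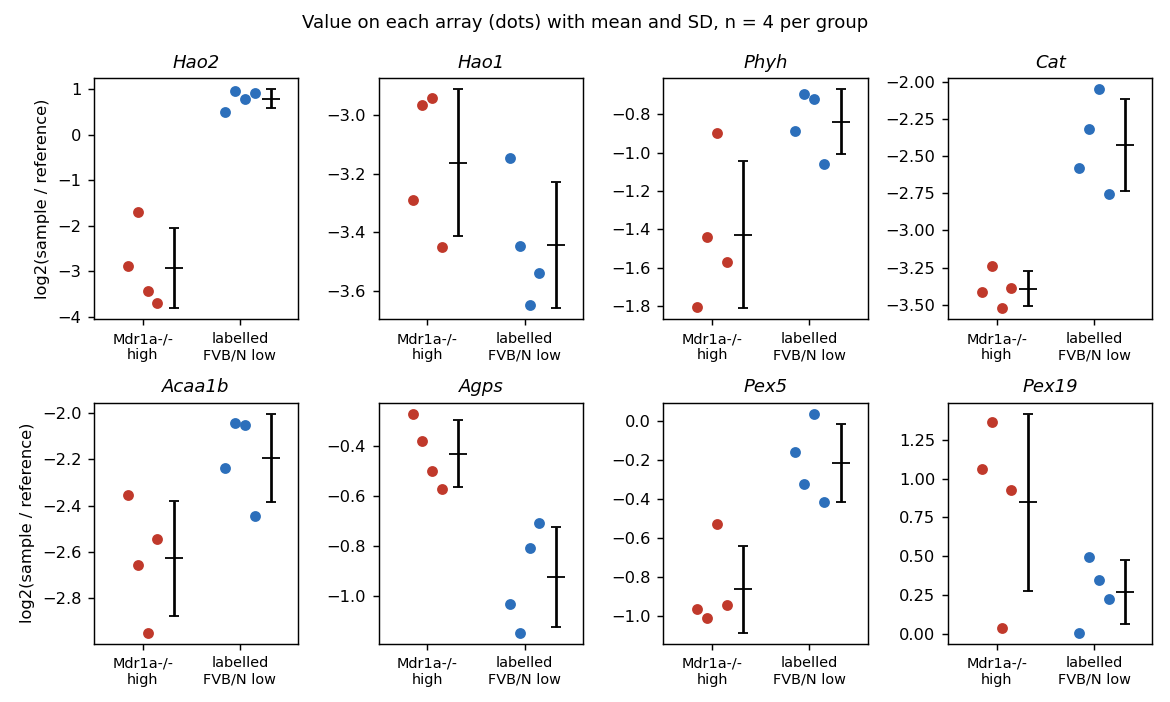
Log2(sample / reference) on each array (y axis, dots) for 8 genes, with the mean and SD of each group (n = 4), red for Mdr1a-/- high score and blue for labelled FVB/N low score. The groups are apart for Hao2, Cat, Agps and Pex5, and overlap for Hao1, Phyh, Acaa1b and Pex19, and Mdr1a-/- replicate 3 is the array nearest the other group for Phyh, Pex5 and Pex19.

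The promoters of the 2 genes that fell are shown because Ppara, whose transcript also fell, binds a DR1 element as a dimer with a retinoid X receptor. The windows are from RefSeq on GRCm38.p6, run 5′ to 3′ on the strand of the gene, and cover 250 bases before and 50 after its start. Hao2 lies at chr3:98893181-98893480 on the minus strand and Cat at chr2:103485104-103485403 on the minus strand. Capitals mark a DR1.
Hao2: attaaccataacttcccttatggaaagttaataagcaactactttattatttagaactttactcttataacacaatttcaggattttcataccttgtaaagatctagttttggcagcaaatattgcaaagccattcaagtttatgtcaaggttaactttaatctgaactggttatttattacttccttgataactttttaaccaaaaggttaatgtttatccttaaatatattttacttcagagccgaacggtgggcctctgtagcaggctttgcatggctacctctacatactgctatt
Cat: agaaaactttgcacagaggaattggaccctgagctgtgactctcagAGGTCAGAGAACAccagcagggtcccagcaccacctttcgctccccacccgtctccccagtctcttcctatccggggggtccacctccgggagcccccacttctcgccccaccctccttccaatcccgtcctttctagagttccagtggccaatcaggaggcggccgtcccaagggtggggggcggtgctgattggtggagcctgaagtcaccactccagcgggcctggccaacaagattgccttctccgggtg
A DR1 was taken as AGGTCA repeated after 1 base, with up to 2 mismatches in all and on either strand. The Cat window holds a match with 2 mismatches whose first base lies at -204 from the start of the gene, and the Hao2 window holds none. Of 41 genes, 31 had a promoter in the table, and a match was found in 2 of 17 enzymes (Cat and Acox2), 0 of 3 importers or membrane proteins and 0 of 11 peroxins. Over all genes of the table, 4.4% had a match. A match to these letters is no measured binding site and does not name the factor that would bind it. Its lack in this window says nothing about any factor.

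Beta-oxidation held 12 genes, and 0 of them passed in either direction. Their fold changes ran from -0.43 for Acaa1b to 0.18 for Crot, with a median of -0.08, against 0.03 over all named genes. Acaa1b, a thiolase that makes the last cut of the cycle, stood at -2.36, -2.66, -2.95 and -2.55 in Mdr1a-/- mice and at -2.24, -2.04, -2.05 and -2.45 on the arrays labelled FVB/N. The Mdr1a-/- arrays tended to be lower, but the groups overlapped, and the fold change was -0.43 ± 0.17 (SE, limma adjusted p = 0.263). Crot, which moves chain-shortened acyl groups onto carnitine for export, stood at -2.22, -2.85, -2.57 and -2.85 against -2.62, -2.74, -3.28 and -2.57. Here the groups overlapped fully, and the fold change was 0.18 ± 0.21 (SE, limma adjusted p = 0.781). Its other probe gave 0.13.

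Among the rest of the cycle, Scp2, whose long form is the thiolase for branched chains and bile acid precursors, had a fold change of -0.39 ± 0.16 (SE, limma adjusted p = 0.289). Its reference channel was near saturation on all 8 arrays, and its other probe, above background on 0 arrays, is not read. Acaa1a, the second thiolase paralog, gave -0.43, 0.04 and -0.32 at its 3 probes. The reference channel of the probe at -0.43 was near saturation on 5 of 8 arrays. The probe at -0.32 differed from the Acaa1b probe by at most 0.231 on any array, whereas the other 2 differed from it by 0.744 to 1.76. The paralogs are near-identical in sequence, and whether that probe binds both transcripts was not tested. The bifunctional enzymes Ehhadh and Hsd17b4 had fold changes of 0.09 and 0.14, and the branched-chain oxidases Acox2 and Acox3 of -0.10 and 0.12. For the auxiliary enzymes they were 0.17 (Pecr, a trans-2-enoyl-CoA reductase), -0.06 (Amacr, the racemase of branched acids), -0.10 (Decr2, a dienoyl-CoA reductase) and -0.21 (Acot8, a thioesterase). The reference channel was near saturation on 5 of 8 arrays for Amacr and on 3 for Pecr.

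Acox2, the oxidase for bile acid precursors, varied most among the 41 genes. Its log2 ratio was -2.33, -0.37, -1.56 and -2.26 in Mdr1a-/- mice and -2.31, -1.13, -1.65 and -1.02 on the arrays labelled FVB/N. Each group spanned more than its distance from the other, and the 95% interval of the fold change ran from -1.11 to 0.91, so a 2-fold fall lies within it. The SD within groups, pooled over both, was 0.768 for Acox2 against a median of 0.233 over the 19 enzymes, 0.212 over the 17 peroxins and 0.281 over all named genes.

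Neither of the enzymes that start ether lipid synthesis inside the peroxisome passed. Gnpat, which puts the first acyl chain on dihydroxyacetone phosphate, stood at -0.86, -1.15, -1.20 and -1.0 in Mdr1a-/- mice and at -0.95, -1.21, -1.0 and -1.11 on the arrays labelled FVB/N. Agps, which swaps that chain for a fatty alcohol, stood at -0.27, -0.38, -0.50 and -0.57 against -1.03, -1.15, -0.81 and -0.71. For Gnpat the groups lay on top of each other, and for Agps all Mdr1a-/- arrays were above all others. The fold changes were 0.02 ± 0.14 for Gnpat and 0.49 ± 0.15 for Agps (SE, limma adjusted p = 0.974 and 0.137). The other Agps probe, dimmer and above background on 3 and 2 arrays, gave 0.23 ± 0.34 (SE). Without background subtraction the bright Agps probe passed (limma adjusted p = 0.0413). With the Cy3 channel alone, which leaves the reference out, its difference was only 0.03 ± 0.18 (SE, limma adjusted p = 0.946), and that of Gnpat was -0.21.

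None of the 5 importers and small membrane proteins passed, and the brightest probes of all 5 lay between -0.09 and 0.08. The ABC importer Abcd3, which carries branched and dicarboxylic acyl-CoAs inward, stood at -1.12, -0.75, -0.84 and -0.77 in Mdr1a-/- mice and at -0.89, -0.82, -1.09 and -0.87 on the arrays labelled FVB/N. Its close relative Abcd2, for very long and polyunsaturated chains, stood at -0.28, 0.39, 0.26 and 0.06 against 0.55, -0.16, -0.13 and 0.13, and was above background on 2 Mdr1a-/- arrays and 3 of the others. The groups overlapped for both genes, at 0.05 ± 0.14 for Abcd3 and 0.01 ± 0.21 for Abcd2 (fold change and SE, limma adjusted p = 0.919 and 0.987). The other Abcd3 probes gave -0.18 and -0.27, and the other Abcd2 probe, above background on 1 array in all, gave -0.59 ± 0.33 (SE).

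Pxmp2, a channel of the peroxisomal membrane, stood at -0.83, -0.82, -0.50 and -0.75 in Mdr1a-/- mice and at -0.66, -0.78, -0.38 and -0.74 on the arrays labelled FVB/N. Mpv17, a relative of Pxmp2 first placed in peroxisomes and now known mainly from the inner mitochondrial membrane, stood at -0.25, -0.82, -0.36 and -0.53 against -0.28, -0.76, -0.71 and -0.53. The groups overlapped for both, and the fold changes were -0.09 ± 0.15 and 0.08 ± 0.18 (SE, limma adjusted p = 0.857 and 0.887). Pxmp4, a further relative, gave -0.07 at its bright probe and 0.18 at the other.

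Of the 17 peroxins, 0 passed, 9 lay below no change and 8 above, and the median fold change was -0.10. Pex5, the cytosolic receptor that binds enzymes with a C-terminal targeting signal and carries them in, had the lowest fold change. Its bright probe (A_52_P419007) stood at -0.97, -1.01, -0.53 and -0.95 in Mdr1a-/- mice and at -0.16, -0.32, 0.04 and -0.42 on the arrays labelled FVB/N. The groups did not overlap, though Mdr1a-/- replicate 3 lay near the others. The fold change was -0.65 ± 0.17 (SE), with -1.02 to -0.27 as the 95% interval, and missed the threshold (limma adjusted p = 0.0787). It passed without Mdr1a-/- replicate 3 (limma adjusted p = 0.0389). The difference was -0.93 within scan day 2 and -0.16 within scan day 3. The other Pex5 probe, on a different RefSeq transcript, gave -0.05 ± 0.15 (SE), so the difference was seen at 1 of 2 probes. Pex7, the receptor for the N-terminal signal, gave -0.24, and Pex5l, a relative of Pex5 known from neurons, gave -0.19.

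Pex19, which binds newly made membrane proteins and brings them to the organelle, had the highest fold change of the peroxins. Its bright probe (A_52_P118958) stood at 1.06, 1.37, 0.04 and 0.92 in Mdr1a-/- mice and at 0.00, 0.49, 0.35 and 0.22 on the arrays labelled FVB/N. Of the Mdr1a-/- arrays 3 lay above all others, and replicate 3 lay among them. The fold change was 0.58 ± 0.27 (SE, limma adjusted p = 0.359), and without Mdr1a-/- replicate 3 it was 0.85 and passed (limma adjusted p = 0.0416). The Cy3 channel alone gave 1.13 (limma adjusted p = 0.147). Within scan day 2 it was 1.04 and within scan day 3, where replicate 3 is the sole Mdr1a-/- array, it was -0.32. The other Pex19 probe gave -0.15 ± 0.14 (SE), so the probes of this gene disagree in sign. Its partners in membrane assembly, Pex3 and Pex16, gave 0.01 and -0.29.

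The remaining peroxins had fold changes within 0.44 of no change at their brightest probes. The docking partners Pex13 and Pex14 gave 0.24 and -0.44, and a dim Pex14 probe, above background on 1 array of each group, gave 0.73 ± 0.43 (SE). The ubiquitin ligases Pex2 and Pex10, which mark Pex5 for recycling, gave -0.23 and 0.07. Pex6, of the motor that recycles Pex5, and its anchor Pex26 gave -0.20 and 0.27. Of the division factors, Pex11a, which Ppara agonists induce in rodent liver, gave -0.32, and Pex11g gave 0.05. A dim Pex11g probe (A_52_P573970) passed limma at an adjusted p of 0.0484, lower in Mdr1a-/- mice, at -0.86, -0.99, -0.76 and -0.79 against -0.41, -0.10, -0.32 and -0.16. It was above background on 0 of 8 arrays, so no fold is read from it, and its call held in 2 of 18 other settings. With it, 3 of the 66 probes were called lower and 0 higher, against 1.45% and 1.53% of all probes, 2.98% together.

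Seen against the reference pool, enzymes and peroxins stood far apart in every mouse. The median log2 ratio over the 19 enzymes was -1.81, -1.61, -1.56 and -1.73 on the Mdr1a-/- arrays and -1.30, -1.36, -1.37 and -1.11 on the arrays labelled FVB/N. Over the 17 peroxins it was -0.25, -0.26, -0.17 and -0.46 against -0.23, -0.30, -0.10 and -0.34, and over all named genes it lay between -0.07 and -0.02. Of the enzymes 16 of 19 were below the reference on all 8 arrays, against 5 of 17 peroxins and 4952 of 27712 named genes. The pool holds liver and kidney RNA, tissues rich in these enzymes, so these values say how the colon compares with the pool, not how much of each transcript it holds. The enzyme medians of the groups do not overlap, yet the median of the 19 fold changes was -0.06, and -0.02 without Hao2. The array medians therefore describe the middle gene on each array, which need not be the same gene, and no test was made on them.

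**Figure D3:**
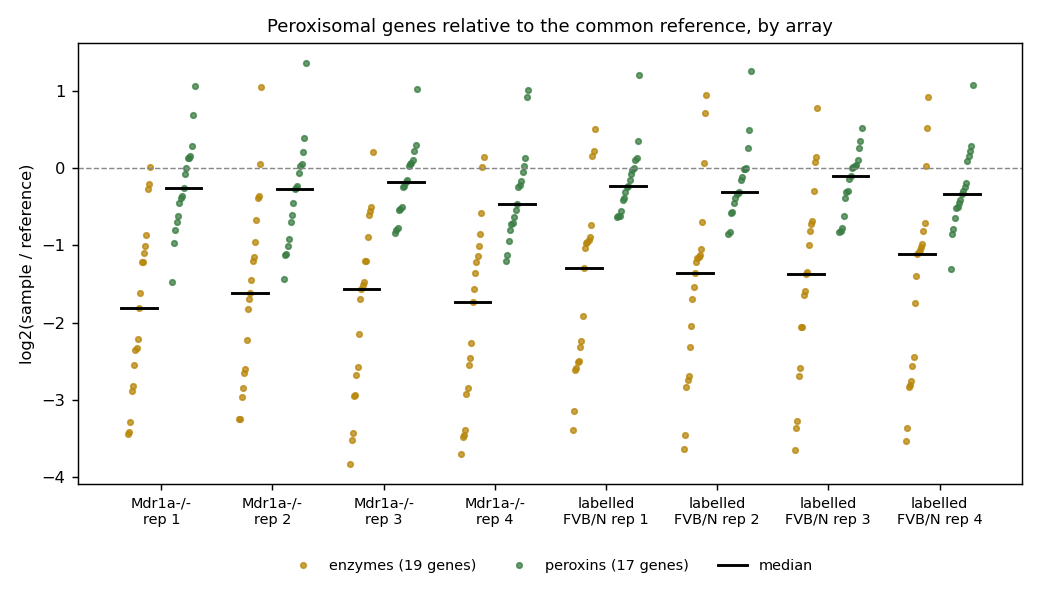
Log2(sample / reference) of the 19 enzyme genes and the 17 peroxin genes (y axis, dots, brightest probe per gene) on each of the 8 arrays, with black lines for the median. The enzyme medians lie between -1.81 and -1.11 and the peroxin medians between -0.46 and -0.10.

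How small a change these arrays could miss differs by gene. For 35 of the 41 genes the 95% interval lay within 1 on the log2 scale in both directions. The 6 exceptions were Hao2, Cat, Phyh, Acox2, Pex5 and Pex19. For those 35 a 2-fold change lay outside the interval, and which smaller changes lay within it differed by gene. A p that missed the threshold does not show that a gene was alike in both groups.

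Of 43 further peroxisomal genes, 4 were lower, 1 higher and 38 did not pass, beside 1.68% lower and 1.82% higher over all named genes. The 43 were chosen with earlier results of these data known, so their share is not read as an excess over all genes. Whether they differ from the 41 genes in how often they are called was not tested. Among those lower, the epoxide hydrolase Ephx2 fell by 1.20 ± 0.22, the dienoyl-CoA isomerase Ech1 by 1.13 ± 0.17, and the acyl-CoA dehydrogenase Acad11 by 1.0 ± 0.15 (log2 fold change and SE, limma adjusted p = 0.0231, 0.00954 and 0.00899). The reference channel of the Ephx2 probe was near saturation on 6 of 8 arrays, and the Cy3 channel alone gave -1.21. The call of Ephx2 held in 13 of 20 other settings. A second Acad11 probe did not show the fall, at 0.08. Paox, a polyamine oxidase, rose by 0.82 ± 0.17 (SE, limma adjusted p = 0.0360). Its second probe, above background on all 8 arrays, gave 0.54 and did not pass (limma adjusted p = 0.112). The median fold change of the 43 was -0.10. With scan day as a block 0 of the 5 passed, with Ech1 at -1.14 and Acad11 at -1.03 (limma adjusted p = 0.0786 and 0.0696).

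Of 10 nuclear receptors and coactivators that drive peroxisomal genes, 3 were lower, 0 higher and 7 did not pass, beside the same 1.68% and 1.82% of all named genes. This list too was chosen with earlier results of these data known, so its share is not read as an excess. Among the 7, the coactivator Ppargc1b gave -0.65 at its brightest probe (limma adjusted p = 0.0646). Its other probes, above background on all 8 arrays, gave -1.04 and -0.80 and passed as lower (limma adjusted p = 0.0471 and 0.0446). Ppara stood at -2.54, -2.52, -2.43 and -2.63 in Mdr1a-/- mice and at -1.22, -1.55, -1.0 and -1.27 on the arrays labelled FVB/N, a gap with no overlap. It fell by 1.27 ± 0.15 (log2, SE, limma adjusted p = 0.00342) and its call held in 19 of 20 other settings. The coactivator Ppargc1a fell by 1.45 ± 0.29 and the liver and gut receptor Hnf4a by 1.13 ± 0.24 (SE, limma adjusted p = 0.0295 and 0.0401). A second Ppargc1a probe, above background on all 8 arrays, gave -0.64 and did not pass (limma adjusted p = 0.0842). Other Hnf4a probes gave 0.15 and -0.54, and the calls of Ppargc1a and Hnf4a held in 9 and 8 of 20 other settings. Whether the fall of Ppara, Ppargc1a and Hnf4a has any part in that of Hao2 and Cat was not tested. Distal hindgut markers, also chosen with earlier results known, were lower for 3 of 6 genes. Their array means were -0.25 to 0.46 in Mdr1a-/- mice and 0.89 to 1.61 on the arrays labelled FVB/N. The part of these markers in the fall of Hao2 and Cat, and that of the leukocyte and epithelial markers, was not tested.

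The authors' deposited table gives a fold change for 62 of the 66 probes, and 50 of the 62 have the same sign there. At an adjusted p under 0.05, 5 probes are lower and 3 higher in the authors' deposited table, against 4.39% and 6.31% of its spots and 10.7% together. Hao2 (-3.21) and Cat (-0.61) are lower in the authors' deposited table as they are here (adjusted p = 4.7e-06 and 0.0289). Phyh (-0.62), Scp2 (-0.45) and Pex2 (-0.58) are also lower in the authors' deposited table, with adjusted p = 0.0104, 0.0479 and 0.0229. Pex19 (0.73), Hao1 (0.51) and Acox3 (0.31) are higher in the authors' deposited table, with adjusted p = 0.0282, 0.0223 and 0.0206. These 6 did not pass on the arrays as fitted here, where their fold changes had the same signs. Whether the authors' table was made from the same arrays as those read here was not tested. Abcb1a was -1.62 there and -0.40 here. The pancreatic genes Amy2, Prss2 and Cela2a were 1.48, 0.85 and 0.80 there and -1.57, -1.84 and -1.61 here. Cpa1, Pnlip and Ctrb1 also changed sign, while Clps and Cel were negative in both. These pancreatic genes did not pass in either.

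**Figure D4:**
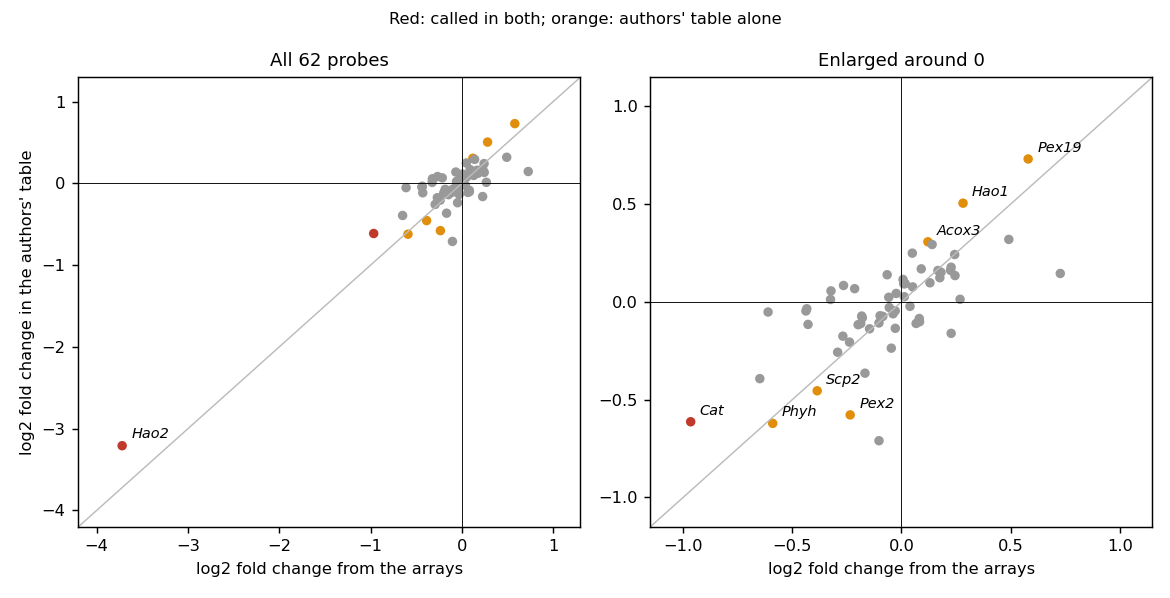
Log2 fold change in the authors' deposited table (y axis) against that from the arrays (x axis) for the 62 peroxisomal probes with both, whole at left and enlarged at right, with a grey line of equality. Red marks Hao2 and Cat, called in both, orange marks the 6 called in the authors' table alone, and grey marks probes called in neither.

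**Figure D5:**
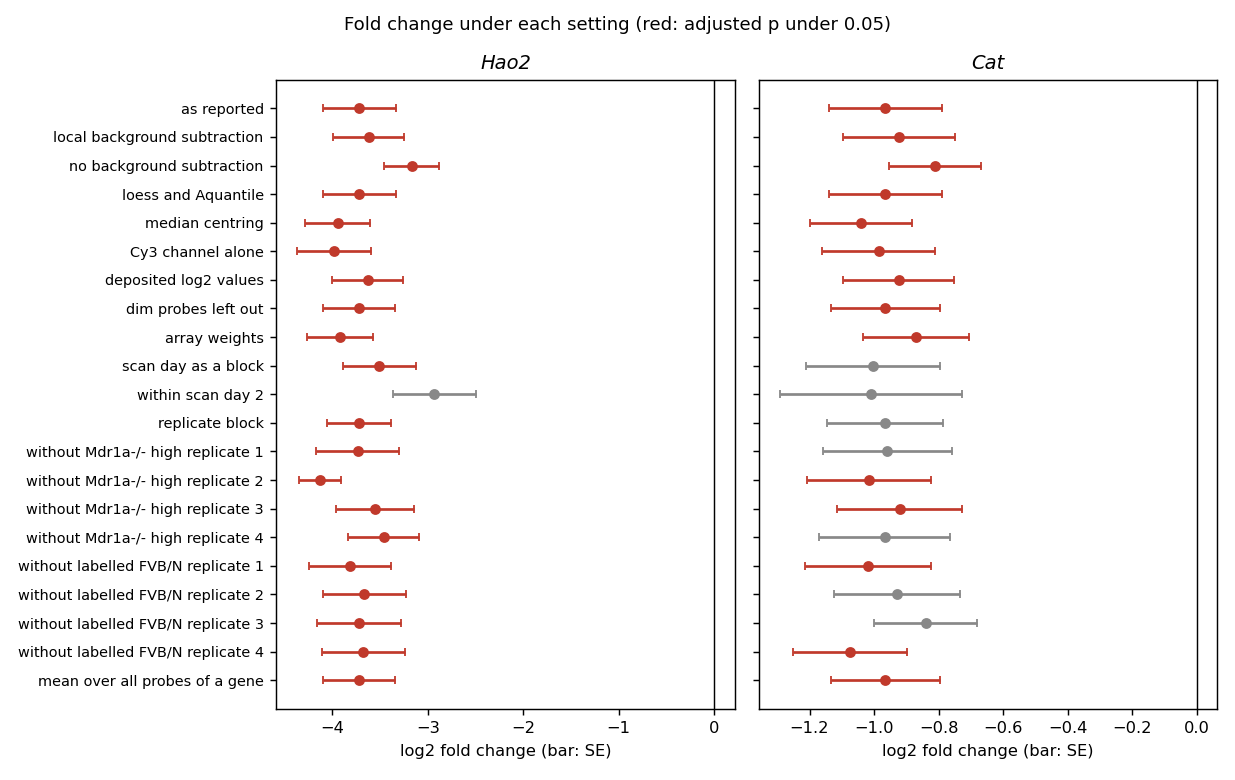
Log2 fold change of Hao2 and Cat (x axis) under each processing setting (rows), with bars for the SE, red where limma's adjusted p was under 0.05. Hao2 is grey in 1 of 20 other settings and Cat in 7 of 20, while the values stay between -4.13 and -2.93 for Hao2 and between -1.07 and -0.81 for Cat.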

How the data were processed

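Colon RNA of 8 mice was measured on 2-colour arrays. The array files hold, per the file headers, foreground and background intensity for both channels and a log2 ratio normalized by the authors, which recalculation from the intensities matched within 3e-13 as reference over sample, so the sign was turned. The submitters' processing notes name limma and give no version of it. The authors' deposited table covers 35449 of 44290 spots with fold changes, p-values, their adjusted form and a t score. Its description calls the fold changes log10, but their slope on log2 fold changes without background subtraction was 0.868, against 0.301 for a log10 scale, so they are read as log2.

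The intensities went through limma 3.58.1 (R 4.3.3), with normexp background correction (offset 50), loess within arrays with control spots at weight 0, and spots averaged per probe. The comparison used lmFit and eBayes with no covariate, two-sided. A probe was above background when its net Cy3 signal exceeded the 95th percentile of 314 negative controls, and near saturation above 60000. The fit was tested on simulated data. Probes were named through RefSeq on GRCm38.p6 by accession (22064), current symbol (6286) or older symbol (4210), and 8614 keep the file's name. The brightest probe stands for a gene. The rule for named genes took every called member, the lowest and highest member of each role, and Abcb1a; Phyh, Acox2 and the other members were described as well. The members and gene lists were chosen with earlier results of these data known. Replicate numbers are shared by the groups, but same-numbered arrays deviated together at correlations of only -0.03 to 0.11, so they were not taken as pairs. P-values measure the spread between mice of a group. Counts and medians cover all members, and the values of a few genes are not reported here. The alternatives covered background, normalization, channel, filter, weights, scan day, block, threshold and each array left out.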

Additional observations from a re-analysis of the deposited data

Results flagged for a closer look

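In 4 of 102 groups of 4 arrays, over 51 probes, 1 array stood far from the other 3. Chance flags about 1 in 20 groups. The probes were the brightest of each member gene, the dim Pex11g probe, Abcb1a, and the called further peroxisomal genes and regulators. Not all were above background, and the dim Pex11g probe was so on 0 of 8 arrays. Mdr1a-/- replicate 3 was the array in 3 of the 4 flagged groups. Its log2 ratio for Acot8 was -0.61, with the nearest other Mdr1a-/- array at 0.01. For Pex5 it was -0.53, with the nearest at -0.95, and for Pex11a it was -0.22, with the nearest at -0.70. For Amacr, labelled FVB/N replicate 2 stood at -3.64, with the nearest at -3.39, and the reference channel of that probe was near saturation on 5 of 8 arrays. Mdr1a-/- replicate 3 also had the lowest leukocyte marker mean of its group, 1.17 against 1.90 to 2.11, and is the sole Mdr1a-/- array of scan day 3. The part of these in the values was not tested.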

How the results depend on the processing

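Hao2 was called in 19 of 20 alternatives and Cat in 13 of 20, and both were lower in all. The 3 member probes called lower became 1 with scan day as a block and 0 within scan day 2, and 0 higher became 1 without background subtraction. The 2 enzyme genes called lower became 1 with scan day as a block and 0 within scan day 2, and 0 higher became 1 without background subtraction (Agps). For peroxins, 0 lower became 1 (Pex5) without background subtraction, with array weights and at an adjusted p under 0.1. Further peroxisomal genes called lower numbered 0 with scan day as a block and within scan day 2, and 2 when each gene's probes were averaged. Those called higher numbered 2 without background subtraction, with array weights and at an adjusted p under 0.1, and 0 with median centring, the Cy3 channel alone, scan day as a block or within scan day 2. Regulators called lower numbered 5 without background subtraction and at an adjusted p under 0.1, 1 with scan day as a block and 0 within scan day 2. The enzyme median was -0.23 with the Cy3 channel alone. Over all probes, 939 were lower and 1081 higher with array weights, 115 and 133 with scan day as a block, 0 and 0 within scan day 2, and 1036 and 1120 at an adjusted p under 0.1. Mdr1a-/- replicate 4 is the sole array of scan day 1, so with scan day as a block it adds nothing to the group difference. The cause of these changes was not tested, beyond this, the fewer arrays within scan day 2 and the looser threshold.

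With the replicate block, whose numbers do not pair the mice, 286 probes were lower and 310 higher, 1 member probe and 1 enzyme gene (Hao2) remained lower, and Cat did not pass (limma adjusted p = 0.0724). With this block 1 further peroxisomal gene and 1 regulator were lower and 0 further genes higher.

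Leaving out each array in turn gave 247 to 675 probes lower and 250 to 783 higher, 1 to 4 member probes lower and 0 to 1 higher, 1 to 3 enzymes lower and 0 to 0 higher, and 0 to 1 peroxins lower and 0 to 1 higher. Further genes were 2 to 4 lower and 0 to 2 higher, regulators 1 to 3 lower and 0 to 0 higher. The enzyme median ran from -0.14 to 0.04 and the peroxin median from -0.18 to -0.03. Signal over background limits Hao1, Abcd2 and the dim second probes. Loess with Aquantile leaves log ratios as they are, so it changed nothing.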

Other observations

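Markers of other tissues that a colon sample can carry were also read. Of 7 adipose genes 0 passed, with array means of -0.60 to -0.03 in Mdr1a-/- mice and -0.97 to 1.90 on the arrays labelled FVB/N. Of 8 pancreatic genes 0 passed, at -1.51 to 1.05 and -0.11 to 1.79. Of 6 smooth muscle genes 0 passed, at -0.59 to 0.16 and -0.09 to 0.43. Of 5 measured liver genes 0 passed, at -2.99 to -2.63 and -2.93 to -2.51. The part of these tissues in any result was not tested.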
